A study of Mus musculus with 16 samples.

Results

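The genes described here mark the endothelium, the cell layer that lines blood vessels, or encode the growth factors that direct vessel growth. They were chosen by name, as the rows of the deposited count table whose Ensembl identifier carries the listed symbol in GENCODE M21, and they are 38 of the 54838 genes in that table. All 38 are annotated as protein-coding, all had counts in every library (at least 14, for Pgf), and all 38 passed the filter on low counts. By role there were 6 endothelial adhesion and junction genes, 3 vascular endothelial growth factor (VEGF) receptors, 3 genes of the angiopoietin receptor complex, 9 other surface or matrix proteins, 4 transcription factors, 5 genes of Notch signalling, apelin signalling and the tip cell, 3 intracellular or receptor-modifying proteins and 5 secreted growth factors.

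Adrenal RNA came from 16 mice, each 4 weeks old and of mixed background, with 1 bulk RNA-seq library per mouse and 4 mice in each of 4 groups. Each sex had controls and animals with Rspo1 gain-of-function, written GOF here: female control, female Rspo1 GOF, male control and male Rspo1 GOF. The product of Rspo1, R-spondin 1, is secreted and amplifies WNT signalling. What drives the extra Rspo1, in which cells, and which alleles the controls carry are not given in the sources used here.

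The adrenal cortex is threaded by sinusoidal capillaries whose endothelium is fenestrated, and steroid-secreting cells lie directly against them. In growing vessels VEGF acts through its receptors on a leading tip cell, which displays the Notch ligand Dll4 and releases factors such as Esm1 and apelin, while Notch signalling restrains the neighbouring stalk cells. Angiopoietins act through the receptor Tek on the stability of the vessel wall.

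Library totals ran from 31275146 to 43003968 counts. Levels are given as CPM, counts per 1000000 of a library's total after scaling, and log2 fold changes come from the quasi-likelihood test of edgeR. A gene was called at a p of 0.05 after Benjamini-Hochberg adjustment over 18214 tested genes. Rspo1 itself lay between 3.19 and 40.5 CPM among female controls, 353 and 532 among GOF females, 19.4 and 48.2 among male controls, and 534 and 971 among GOF males, so every library lay on the side of its label. Male control 1 stood apart for the endothelial genes. It was the lowest male control in 31 of the 33 members that are not growth factors and in 23 of 24 other endothelial genes, and its median level was 0.558 times the mean of the 16 libraries over those 33 members, against 0.704 to 1.40 in the other libraries. Male GOF 2 was the lowest of its group in 24 of the 33. Male control 1 also had the highest sum of 6 steroid cell genes of the cortex, 36770 CPM, against 18450 to 29380 in the other libraries. Male control 2 held hepatocyte transcripts (7 genes, summed level 8369 CPM). That sum was 763.5 CPM in male control 1, 566.7 in male control 3 and 7.79 to 180.6 elsewhere. Female controls 1 and 3 held kidney tubule transcripts (6 genes, 809 and 134 CPM, against 0 to 1.26 elsewhere). The numbers in the library titles were read as animal numbers, an inference from the titles alone. They fall into 3 runs: the lowest holds 7 libraries of all 4 groups, the middle 5 female libraries and the highest 3 male libraries. The number of female GOF 4 lies between the middle and highest runs, nearer to the highest, and was counted with the middle one. Sex and number run are therefore told apart mainly within the lowest run.

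Per unit of length, the deposited FPKM values placed Vegfa highest of the 38, at a mean of 334 FPKM over the 16 libraries. Plvap followed at 88.7, Eng at 62.9, Esam at 53.5, Egfl7 at 53.3, Cdh5 at 50.7 and Pecam1 at 47.4 FPKM. Cdh5 and Pecam1, which define endothelium, had at least 2164 and 2173 counts in every library. Sox7 (1.99 FPKM), Nos3 (1.52) and Pgf (1.47) were the lowest. Whole-gland RNA cannot tell fewer endothelial cells from less RNA per cell.

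With Rspo1 GOF, few of the 38 genes passed the test in females, and in males 12 passed as higher, spread over several roles, and 3 secreted factors and Vwf as lower. In females 1 member was called higher (Esm1) and 3 lower (Nos3, Pgf and Angpt1), where 19.0% of all tested genes were called higher and 20.6% lower. The median log2 fold change of the members was -0.20, beside 0.05 over all genes. In males 12 members were called higher and 4 lower, where 15.2% of all genes were called higher and 21.8% lower. The median of the members was 0.36 in males, beside 0.01 over all genes. The higher genes were Emcn, Plvap, Egfl7, Robo4, Mmrn2, Ecscr, Dll4, Notch4, Apln, Aplnr, Esm1 and Rasip1, and the lower ones were Vwf, Vegfc, Pgf and Angpt1. The count in females became 8 with DESeq2, without male control 1 or without female GOF 4, and 11 in a fit of the female groups alone, where the male groups alone gave 7. Single libraries bore on the count in males. Without male control 1, 6 members were called higher and 4 lower in males, with a median of 0.17. It was 3 higher and 3 lower without male GOF 3, 5 and 2 without male control 2, 5 and 3 without male GOF 1 or 4, and 2 and 2 without female control 1, female control 3 and male control 2 together. With the run of animal numbers as a covariate, 6 were called higher and 3 lower in males. With limma on log2(FPKM + 1), 18 members were called higher and 2 lower in males. In that fit, which differs in test and gene filter as well as scaling, the split over all genes moved too. It went from 48.0% to 60.7% of calls higher in females and from 41.1% to 61.3% in males.

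**Figure D1:**
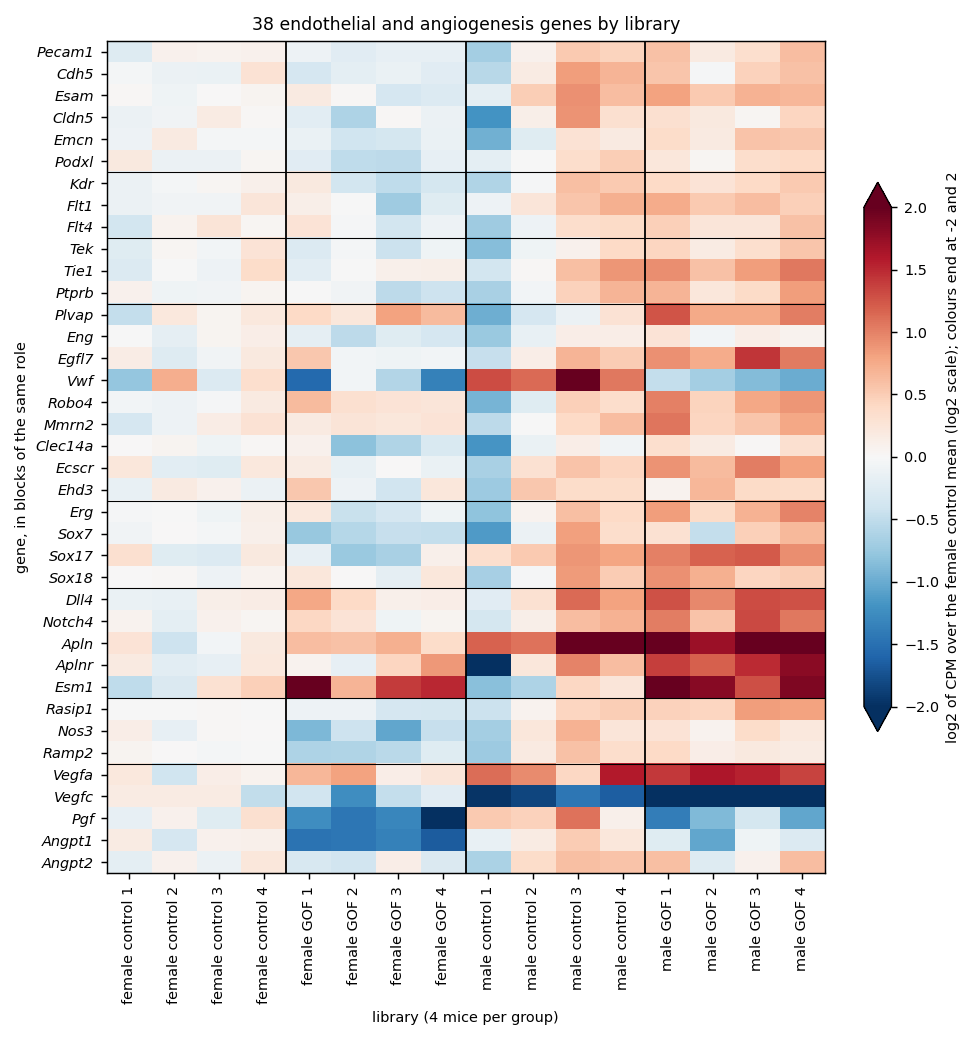
Levels of the 38 genes in the 16 libraries, as the log2 of CPM over the mean of the female controls, with colours that end at -2 and 2. Rows are genes in blocks of the same role, columns are libraries, red is higher and blue lower; male control 1 is bluer than the other male controls in most rows, and Esm1 and Apln are red in all 4 male GOF libraries.

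All 5 genes of the tip cell, Notch and apelin role rose in GOF males. Esm1 (ENSMUSG00000042379, chromosome 13, 113209659 to 113218098, plus strand) encodes endocan, a proteoglycan that sprouting tip cells secrete. It stood at 8.8, 10.2, 15.4 and 17.4 CPM in the 4 female controls and at 59.3, 19.97, 32.8 and 35.6 CPM in female GOF. Among males it stood at 7.01, 8.1, 16.6 and 14.8 CPM in controls and at 85.6, 43.9, 30.6 and 45.5 CPM in GOF. No GOF library overlapped a control library of its sex. GOF females were higher by 1.51 ± 0.392 (log2 fold change ± SE, adjusted p 0.00748) and GOF males by 2.15 ± 0.399 (adjusted p 7.98e-04).

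Apelin and its receptor rose in males. Apln (ENSMUSG00000037010, chromosome X, 48025146 to 48034853, minus strand) encodes the peptide apelin, which acts on Aplnr (ENSMUSG00000044338, chromosome 2, 85136225 to 85139923, plus strand), a G protein-coupled receptor of sprouting and venous endothelium. Apln had 19.7, 18.4, 35.1 and 67.5 CPM in male controls and 109, 28.2, 96.8 and 111 CPM in male GOF, where the second library stayed within the control range. In females it had 10.5, 6.48, 8.37 and 9.91 CPM in controls and 13.3, 13.0, 14.2 and 11.2 in GOF, without overlap, but the fold change of 0.55 ± 0.425 did not pass (adjusted p 0.323). In males it was 1.29 ± 0.418, with an adjusted p of 0.0256. Aplnr had 7.44, 39.8, 67.2 and 52.2 CPM in male controls and 88.3, 77.4, 95.1 and 118 CPM in male GOF, a log2 fold change of 1.19 ± 0.435 with an adjusted p of 0.0451. All 4 GOF males were above all 4 control males for Aplnr, and without male control 1, the low point at 7.44 CPM, the value was 0.84 and still called. Female Aplnr levels of 29.2 to 39.3 CPM in controls and 30.4 to 61.6 in GOF overlapped.

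Dll4 (ENSMUSG00000027314, chromosome 2, 119325784 to 119335962, plus strand) is the Notch ligand of the tip cell, and Notch4 (ENSMUSG00000015468, chromosome 17, 34564268 to 34588503, plus strand) is a Notch receptor found mainly on endothelium. Dll4 had 12.8, 18.4, 32.7 and 26.3 CPM in male controls and 36.04, 29.2, 36.9 and 36.1 CPM in male GOF. Those groups overlapped through male control 3, and the log2 fold change was 0.62 ± 0.228, with an adjusted p of 0.0464. In females it had 13.7, 13.5, 16.3 and 16.6 CPM in controls and 25.7, 19.7, 16.1 and 16.5 CPM in GOF, a fold change of 0.37 ± 0.229 that did not pass (adjusted p 0.211). Notch4 had 24.2, 33.6, 47.4 and 49.8 CPM in male controls and 62.5, 45.9, 76.8 and 63.8 CPM in male GOF, a log2 fold change of 0.68 ± 0.201 with an adjusted p of 0.0157. Only male GOF 2 lay within the range of the male controls. In females it had 32.4, 26.9, 32.5 and 31.7 CPM in controls and 41.04, 37.2, 29.03 and 31.99 CPM in GOF, and the fold change of 0.17 did not pass. In females 1 of the 5, Esm1, was called.

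RefSeq promoter windows on GRCm38.p6 were held for 21 of the 38 genes (27 windows, since some genes have several starts), and for 4 of these 5 genes. The sequences of those 4 are printed because the genes rose together in males; each is read 5′ to 3′ on the strand of the gene and ends at the base before the annotated gene start. Capitals mark matches on either strand to 3 short motifs: the ETS core (AGGAAG or CGGAAG), the TCF/LEF core through which WNT signalling acts (CTTTGA or CTTTGT; the reverse of the latter, ACAAAG, is also a SOX core) and the hypoxia response core (ACGTG or GCGTG).
Esm1, chr13:113209409-113209658, plus strand: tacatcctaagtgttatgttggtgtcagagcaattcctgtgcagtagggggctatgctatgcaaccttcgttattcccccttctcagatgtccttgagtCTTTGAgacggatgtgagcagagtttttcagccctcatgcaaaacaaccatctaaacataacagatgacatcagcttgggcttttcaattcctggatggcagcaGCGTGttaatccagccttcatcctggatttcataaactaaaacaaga
Apln, chrX:48034854-48035103, minus strand: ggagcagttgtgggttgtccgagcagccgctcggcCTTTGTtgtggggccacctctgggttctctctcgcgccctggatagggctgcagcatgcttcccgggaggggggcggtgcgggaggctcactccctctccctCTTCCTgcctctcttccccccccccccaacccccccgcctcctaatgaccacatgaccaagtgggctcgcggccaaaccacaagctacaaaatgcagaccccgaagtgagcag
Notch4, chr17:34564045-34564267, plus strand: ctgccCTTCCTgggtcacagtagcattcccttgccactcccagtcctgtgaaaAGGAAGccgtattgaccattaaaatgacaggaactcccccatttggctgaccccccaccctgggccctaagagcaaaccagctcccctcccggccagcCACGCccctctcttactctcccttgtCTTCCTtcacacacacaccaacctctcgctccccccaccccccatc
Dll4, chr2:119325534-119325783, plus strand: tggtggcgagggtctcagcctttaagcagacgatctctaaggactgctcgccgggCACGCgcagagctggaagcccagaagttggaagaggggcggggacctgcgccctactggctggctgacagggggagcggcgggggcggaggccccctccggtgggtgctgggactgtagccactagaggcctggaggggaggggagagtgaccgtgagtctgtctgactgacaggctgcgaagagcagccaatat
The Esm1 window held CTTTGA from -151 to -146 and GCGTG from -47 to -43, counted back from the gene start. The Apln window held CTTTGT from -215 to -210 and CTTCCT, the reverse of AGGAAG, from -113 to -108. The Notch4 window held 3 ETS matches, starting at -218, -170 and -46, and 1 hypoxia match starting at -72, and the Dll4 window held 1 hypoxia match starting at -195. Such short motifs are common. Over the 250 bases before each start, the ETS core was in 39.2% of 32851 windows and in 40.7% of the 27 windows of members, the TCF/LEF core in 27.6% and 25.9%, and the hypoxia core in 38.6% and 37.0%.

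Among the 9 other surface and matrix proteins, 5 rose in GOF males and 1 fell. Plvap (ENSMUSG00000034845, chromosome 8, 71497765 to 71511752, minus strand) forms the diaphragms of endothelial fenestrae. It had 66.95, 104, 121 and 161 CPM in male controls and 317, 223, 222 and 268 CPM in male GOF, a log2 fold change of 1.18 ± 0.231 with an adjusted p of 0.00109. In females it had 94.6, 153, 138 and 154 CPM in controls and 174, 155, 232 and 204 CPM in GOF. GOF females were all above control females, but the fold change of 0.51 ± 0.228 missed the threshold by edgeR (adjusted p 0.0924). It was called by voom, at 0.53 (adjusted p 0.0364), and without male control 1, at 0.51 (adjusted p 0.0419).

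Egfl7 (ENSMUSG00000026921, chromosome 2, 26580014 to 26593120, plus strand) encodes a protein that endothelium secretes into its matrix, and its gene hosts the microRNA Mir126a. It had 22.8, 34.4, 50.5 and 45.04 CPM in male controls and 59.2, 52.7, 84.8 and 64.8 CPM in male GOF, without overlap, and a log2 fold change of 0.78 ± 0.224 with an adjusted p of 0.0141. Robo4 (ENSMUSG00000032125, chromosome 9, 37401897 to 37415115, plus strand), a roundabout receptor restricted to endothelium, had 14.6, 23.5, 38.7 and 35.4 CPM in male controls and 56.2, 37.97, 47.6 and 51.1 CPM in male GOF. Its log2 fold change was 0.78 ± 0.227, with an adjusted p of 0.0145, and male GOF 2 lay below the highest male control. In females Robo4 had 26.9, 25.9, 27.3 and 31.7 CPM in controls and 43.03, 34.6, 33.7 and 33.02 CPM in GOF; the groups did not overlap, yet the fold change of 0.37 did not pass (adjusted p 0.211). Smaller rises in males were called for Mmrn2, a multimerin of the vessel matrix (0.55 ± 0.205, adjusted p 0.0482), and for Ecscr, an endothelial surface protein with 2.71, 5.23, 6.33 and 5.73 CPM in male controls (0.61 ± 0.223, adjusted p 0.0435). Without male control 1 Ecscr was 0.40 and not called (adjusted p 0.0819). Eng, a coreceptor for TGF-beta ligands, Clec14a, a lectin-like partner of multimerin-2, and Ehd3, a protein of endocytic recycling, did not pass in either sex by edgeR, with fold changes from -0.37 to 0.45. Eng was called lower in GOF females by voom (-0.33, adjusted p 0.0475), without male control 1 (-0.32, adjusted p 0.0194) and in a fit of the female groups alone (-0.35, adjusted p 0.0135). Limma on log2(FPKM + 1) called Clec14a higher in GOF males, at 0.50 (adjusted p 0.0432).

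Vwf went the other way. Vwf (ENSMUSG00000001930, chromosome 6, 125546774 to 125686679, plus strand) encodes von Willebrand factor, the clotting protein stored in endothelial granules and in platelets. It had 15.9, 14.2, 26.4 and 13.4 CPM in male controls and 4.66, 4.03, 3.55 and 3.26 CPM in male GOF. Every GOF male lay below every control male. The log2 fold change was -2.17 ± 0.367, with an adjusted p of 3.27e-04. Female levels were 3.77, 10.6, 5.35 and 8.12 CPM in controls and 2.19, 6.2, 4.33 and 2.54 in GOF, overlapping, with a fold change of -0.87 ± 0.357 and an adjusted p of 0.0667. It was called in females by DESeq2, at -0.88 (adjusted p 0.0372), and with the run of animal numbers as a covariate, at -0.86 (adjusted p 0.0277), as well as at -1.07 without female control 1, at -1.25 without female GOF 2, and at -1.30 without female control 1, female control 3 and male control 2 together. Of 6 megakaryocyte and platelet genes, 4 were tested and 0 were called in either sex by edgeR; their summed level lay between 9.53 and 13.0 CPM among female controls, 8.08 and 11.9 among GOF females, 12.6 and 19.6 among male controls, and 14.7 and 17.0 among GOF males. Of 5 erythroid genes 3 were called lower in GOF males, and their summed level was 1068 to 2044 CPM in male controls against 355 to 634 in GOF males, without overlap. In females 2 of these were called higher, with sums of 288.5 to 990 CPM in controls and 413 to 564 in GOF. Over all genes 19.0% were called higher and 20.6% lower in females, and 15.2% and 21.8% in males. The part of the platelet and erythroid genes in the level of Vwf was not tested.

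**Figure D2:**
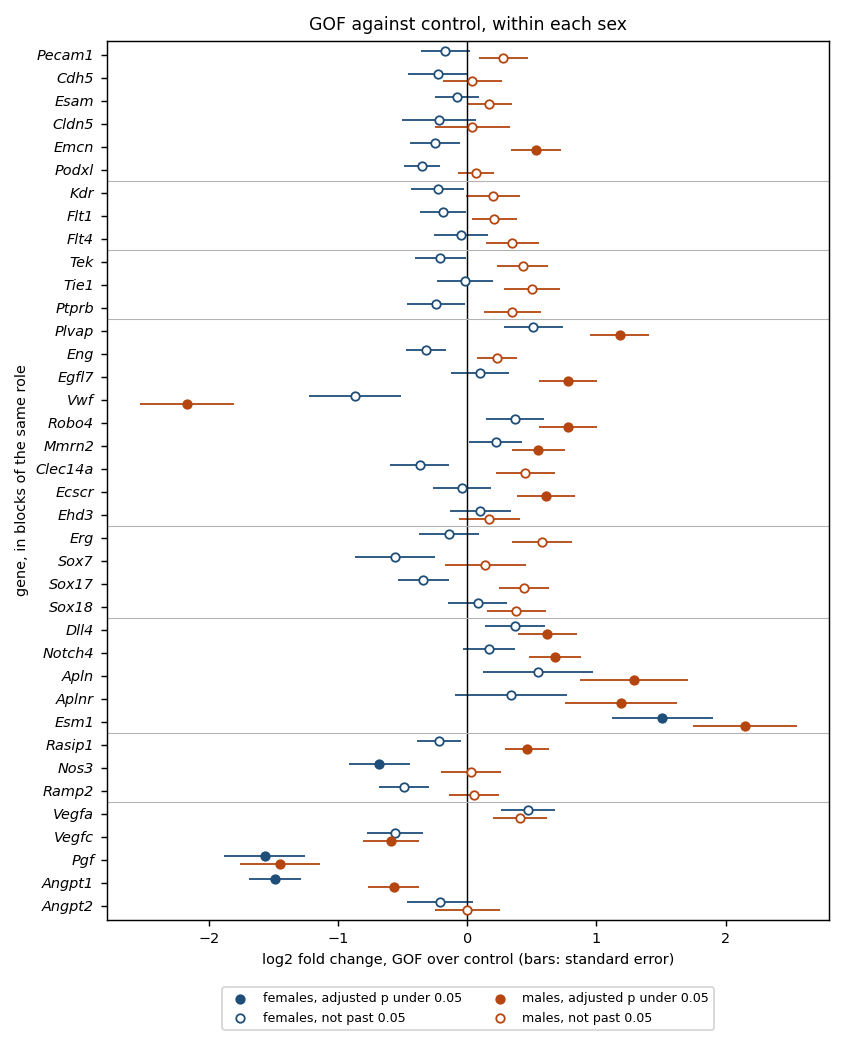
Log2 fold changes of GOF over control for the 38 genes, females in blue and males in orange. Points are the fitted values, bars their standard errors, and filled points have an adjusted p under 0.05. The filled points lie on the left in both sexes for Pgf and Angpt1 and on the right in both sexes for Esm1.

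Of the 6 adhesion and junction genes, Pecam1, Cdh5 (VE-cadherin), Esam, Cldn5, Emcn and Podxl, 0 passed in females and 1 in males by edgeR, the latter near the 15.2% of all genes called higher there. Podxl, the 1 of the 6 with an unadjusted p under 0.05 in females, was lower in every GOF female than in every control female and just missed the threshold (-0.35 ± 0.141, adjusted p 0.0602); DESeq2 called it at -0.37 (adjusted p 0.0310), as did edgeR with the run of animal numbers as a covariate, at -0.35 (adjusted p 0.0261), and 7 of the 16 fits with 1 library left out. Emcn was called in females only in a fit of the female groups alone, at -0.28 (adjusted p 0.0278). Cdh5 (ENSMUSG00000031871, chromosome 8, 104101625 to 104144511, plus strand) had 94.6, 89.9, 88.5 and 119.6 CPM in female controls, 77.5, 84.97, 88.7 and 83.3 in female GOF, 66.5, 109, 173 and 157 in male controls and 143, 95.9, 134 and 146 in male GOF. GOF and control libraries overlapped in both sexes, and the log2 fold changes were -0.23 ± 0.226 in females and 0.04 ± 0.225 in males. Pecam1 had fold changes of -0.17 and 0.28. Emcn, a sialomucin of capillaries and veins, was the gene called in males, at 32.1, 52.4, 75.7 and 70.5 CPM in controls and 79.9, 70.1, 91.9 and 90.3 CPM in GOF (0.53 ± 0.194, adjusted p 0.0455). Without male control 1, at 32.1 CPM, it was 0.33 and lost the call.

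None of the 6 receptors of the VEGF and angiopoietin systems passed in either sex by edgeR, with an unadjusted p under 0.05 for Tek and Tie1 in males. Limma on log2(FPKM + 1) called these 2 higher in males, at 0.57 and 0.65. Kdr, the main signalling receptor for Vegfa, ranged over 131 to 152 CPM among female controls, 100.2 to 163 among GOF females, 93.7 to 214 among male controls and 171 to 203 among GOF males. Fold changes of Kdr, Flt1 and Flt4 ran from -0.23 to -0.05 in females and were 0.20 to 0.35 in males. For Tek, Tie1 and Ptprb, a phosphatase that acts on Tek, they were -0.24 to -0.02 in females and 0.35 to 0.50 in males. The 4 transcription factors, Erg of the ETS family and Sox7, Sox17 and Sox18, did not pass in either sex by edgeR; their fold changes were -0.56 to 0.08 in females and 0.14 to 0.58 in males. DESeq2 called Erg and Sox17 higher in males, at 0.60 and 0.46.

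Of the 3 remaining cellular proteins, Nos3, the endothelial nitric oxide synthase, fell in females. It had 6.54, 5.35, 6.06 and 6.04 CPM in female controls and 3.21, 4.51, 2.92 and 4.37 CPM in female GOF, without overlap (-0.68 ± 0.234, adjusted p 0.0323), and 3.72 to 9.7 CPM in male controls against 7.23, 6.25, 7.73 and 6.91 CPM in male GOF (0.03). Rasip1, which is needed to open vessel lumens, rose in males (0.46 ± 0.172, adjusted p 0.0485), and was 0.30 and not called without male control 1. Ramp2, which turns the calcitonin receptor-like receptor into a receptor for adrenomedullin, missed the threshold in females (-0.49 ± 0.196, adjusted p 0.0576), which DESeq2 passed at -0.52 (adjusted p 0.0294). The exons of Nos3, Rasip1 and Ramp2 share 25.2%, 20.4% and 33.4% of their bases with Gm15587, Izumo1 and Vps25, and those of Sox17 and Angpt1 share 16.9% and 14.2% with Gm37587 and Gm17473. Izumo1 and Vps25 lie on the same strand as the member, and the other 3 on the opposite strand, where reads cannot be told apart if the counting did not use strand.

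Of the 5 secreted factors, Pgf and Angpt1 fell in both sexes, and Vegfc passed in males with a change of like size in females. Pgf (ENSMUSG00000004791, chromosome 12, 85166635 to 85177790, minus strand), placental growth factor, is a ligand of Flt1. It had 2.15, 2.58, 2.06 and 3.02 CPM in female controls and 1.02, 0.892, 0.985 and 0.4 CPM in female GOF, and 3.5, 3.33, 5.16 and 2.61 CPM in male controls and 0.927, 1.31, 1.9 and 1.177 CPM in male GOF. No library overlapped in either sex, and the log2 fold change was -1.57 ± 0.316 in females (adjusted p 0.00127) and -1.45 ± 0.31 in males (adjusted p 0.00204). Pgf was the least abundant member, and its values rest on 14 to 167 counts per library.

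Angpt1 (ENSMUSG00000022309, chromosome 15, 42424723 to 42676977, minus strand), the angiopoietin that activates Tek, had 10.7, 7.58, 10.1 and 10.2 CPM in female controls and 3.45, 3.5, 3.76 and 3.03 CPM in female GOF. In males it had 8.64, 10.7, 13.6 and 11.2 CPM in controls and 8.1, 4.65, 8.98 and 7.88 CPM in GOF, where only the third GOF library reached into the control range. Its log2 fold change was -1.49 ± 0.2 in GOF females (adjusted p 5.4e-05) and -0.57 ± 0.195 in GOF males (adjusted p 0.0315). The difference of these effects, 0.91 ± 0.277, had an adjusted p of 0.0781. The male call of Angpt1 was lost with upper-quartile factors, with no filter on low counts, in a fit of the male groups alone and with limma on FPKM. It was also lost without female control 1, female control 3 and male control 2 together. Angpt2, which can oppose Angpt1 at Tek, had fold changes of -0.21 and -0.00.

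Vegfc (ENSMUSG00000031520, chromosome 8, 54077606 to 54187096, plus strand), the main growth factor for lymphatic vessels and a ligand of Flt4, had 4.15, 4.5, 5.93 and 5.13 CPM in male controls and 2.91, 3.97, 3.4 and 2.78 CPM in male GOF. That fall was called (-0.59 ± 0.219, adjusted p 0.0453). In females it had 17.9, 18.1, 18.1 and 11.4 CPM in controls and 12.3, 6.82, 11.52 and 13.8 in GOF, a fold change of -0.56 that missed the threshold (adjusted p 0.0506), with groups that overlapped through female control 4. Both Vegfc results lie close to the threshold. DESeq2 called it in females (-0.59, adjusted p 0.0207), as did RLE and upper-quartile factors, the minimum of 10 counts and 6 of the 16 fits with 1 library left out, while the male call was lost with upper-quartile factors, with voom and with limma on FPKM. Vegfa (ENSMUSG00000023951, chromosome 17, 46016993 to 46032369, minus strand), the central angiogenic factor, had 255, 168, 242 and 232 CPM in female controls and 353, 388, 244 and 261 CPM in female GOF. In males it had 482, 427, 295 and 665 CPM in controls and 592, 678, 641.1 and 567 CPM in GOF. The groups overlapped in both sexes, and fold changes of 0.47 ± 0.211 and 0.41 ± 0.211 did not pass by edgeR (adjusted p 0.0888 and 0.145). In males it was 0.24 without male control 3 and 0.62, and called, without male control 4 (adjusted p 0.0235), and limma on log2(FPKM + 1) called it at 0.58 (adjusted p 0.0471). In females it was called without male control 3 or 4, at 0.47 (adjusted p 0.0453 and 0.0491). Among 6 steroid cell genes of the cortex, 1 was called higher and 1 lower in each sex, and their summed level lay between 21950 and 29380 CPM among female controls, 18450 and 25470 among GOF females, 22580 and 36770 among male controls, and 24040 and 28020 among GOF males. The 36770 CPM was male control 1, and the other male controls lay between 22580 and 23420. All 7 chromaffin cell genes fell in both sexes, with summed levels of 4689 to 10730 CPM in female controls against 192 to 758 in female GOF, and 7500 to 11130 in male controls against 388 to 871 in male GOF. Their part in the levels of Vegfa, Pgf, Angpt1 and Vegfc was not tested.

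**Figure D3:**
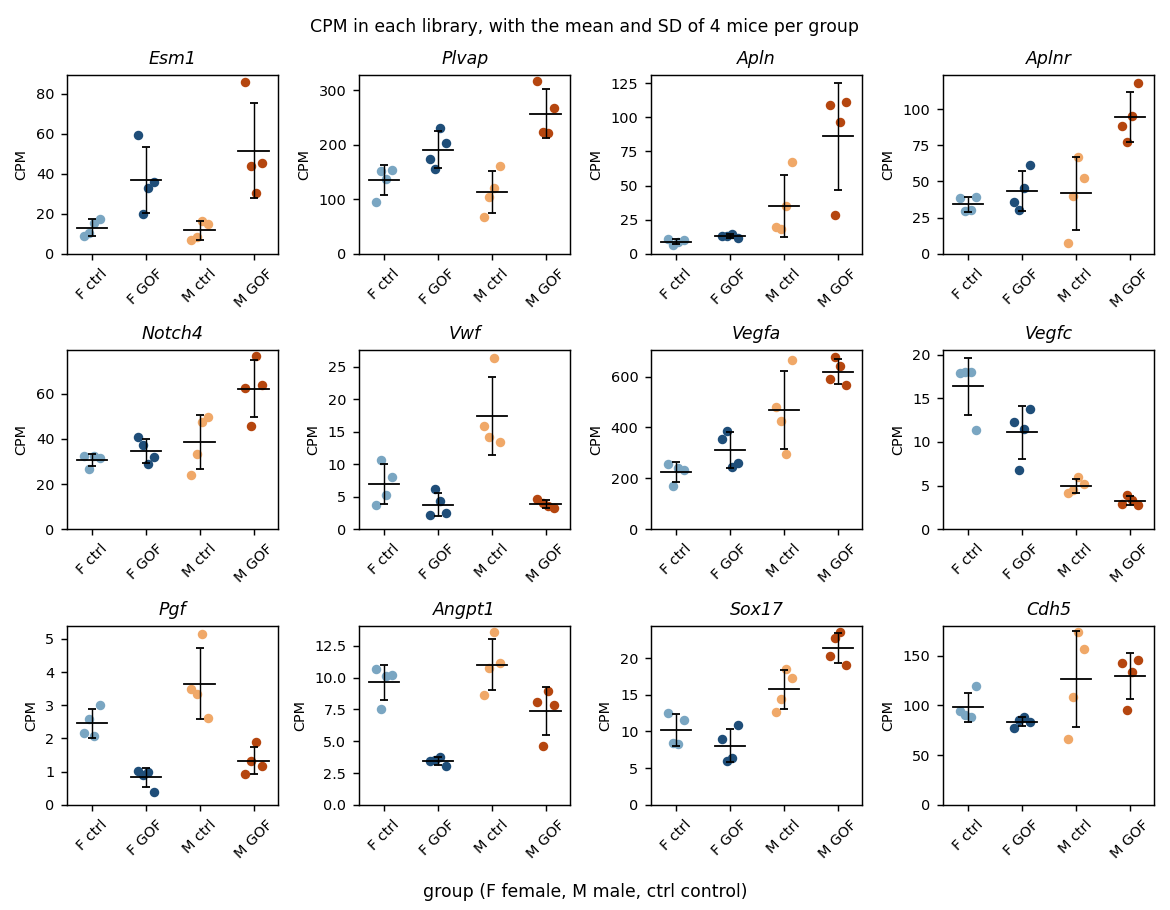
CPM of 12 members in each library, in panels by gene, with the mean (horizontal line) and SD (bar) of the 4 mice per group on axes that start at 0. Esm1, Pgf and Angpt1 part GOF from control in females, Vegfa and Apln sit higher in males than in females of the same genotype, and Vegfc sits lower.

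Calls in males were uneven in how they held when 1 library was left out. Plvap, Vwf, Robo4, Esm1 and Pgf kept their call in all 16 such fits. Egfl7 and Notch4 lost it only without male GOF 3, at 0.61 (adjusted p 0.0611) and 0.55 (adjusted p 0.0636). Angpt1 lost it without male control 2, 3 or 4 or male GOF 2, at -0.59 to -0.42. Apln lost it in 6 of the 16 fits, without male control 1, 2 or 3 or male GOF 1, 3 or 4, at 1.08 to 1.29. The calls of Emcn, Mmrn2, Ecscr, Dll4, Aplnr, Rasip1 and Vegfc, whose adjusted p ran from 0.0435 to 0.0485, were lost in 10 to 14 of the 16 fits. In females Esm1, Pgf and Angpt1 kept theirs in all 16, and Nos3 lost it without female control 1, 3 or 4 or female GOF 1 or 3, at -0.67 to -0.61.

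Because libraries differed in the level of endothelial genes as a whole, each member was also set against 24 other endothelial genes of the same library, such as Cd34, Cd93, Fli1 and Icam2. The measure is the log2 of the member's CPM minus the mean log2 CPM of the 24; it was chosen after the values were seen and carries no test. The reference, a geometric mean, lay between 21.6 and 23.1 CPM among female controls, 16.7 and 22.01 among GOF females, 15.3 and 33.8 among male controls, and 27.2 and 33.4 among GOF males. It contains Cavin2, which fell in both sexes.

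By this ratio 6 members were higher in every GOF library than in every control library of the same sex, in females and in males alike: Plvap, Egfl7, Robo4, Dll4, Notch4 and Esm1. Over all 18214 tested genes the same held for 1.08%. Notch4 ratios were 0.49, 0.32, 0.54 and 0.46 in female controls, 0.90, 1.01, 0.80 and 0.80 in female GOF, 0.66, 0.45, 0.49 and 0.67 in male controls and 1.03, 0.75, 1.21 and 0.93 in male GOF. For Robo4 they were 0.22, 0.26, 0.29 and 0.46 in female controls and 0.97, 0.90, 1.01 and 0.84 in female GOF, and -0.07, -0.07, 0.20 and 0.17 and 0.87, 0.48, 0.52 and 0.61 in males. Male control 1, low in plain CPM, lay beside another male control for both genes. Mean differences of GOF from control were 1.72 in females and 1.84 in males for Esm1, 0.77 and 0.93 for Plvap, 0.62 and 0.56 for Robo4, 0.61 and 0.39 for Dll4, 0.42 and 0.41 for Notch4, and 0.34 and 0.51 for Egfl7. The 6 were picked by this ratio in both sexes, so their shared direction is no support. In plain CPM 5 of them were not called in females, with Egfl7 at 0.10 and Notch4 at 0.17 and groups that overlapped, while the reference itself lay below every female control in GOF females 2, 3 and 4.

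Pgf and Angpt1 were lower in every GOF library than in every control of its sex by the same ratio, as were 10.4% of all tested genes. Their mean differences were -1.39 and -1.77 for Pgf and -1.22 and -0.90 for Angpt1, in females and males. Vwf differed by -2.43 in males without overlap and by -0.63 in females with overlap. Among general markers, Cdh5 differed by 0.04 and -0.19, Pecam1 by 0.09 and 0.03, and Kdr by 0.00 and -0.03. Besides Vwf, without overlap in 1 sex alone, Emcn differed by 0.29, Ecscr by 0.37, Erg by 0.35, Aplnr by 1.25 and Vegfc by -0.90 in males. In females alone Nos3 differed by -0.44, Sox18 by 0.33, Apln by 0.83 and Vegfa by 0.72. The share of all tested genes without overlap in 1 sex alone was not counted, so these values cannot be set against it.

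**Figure D4:**
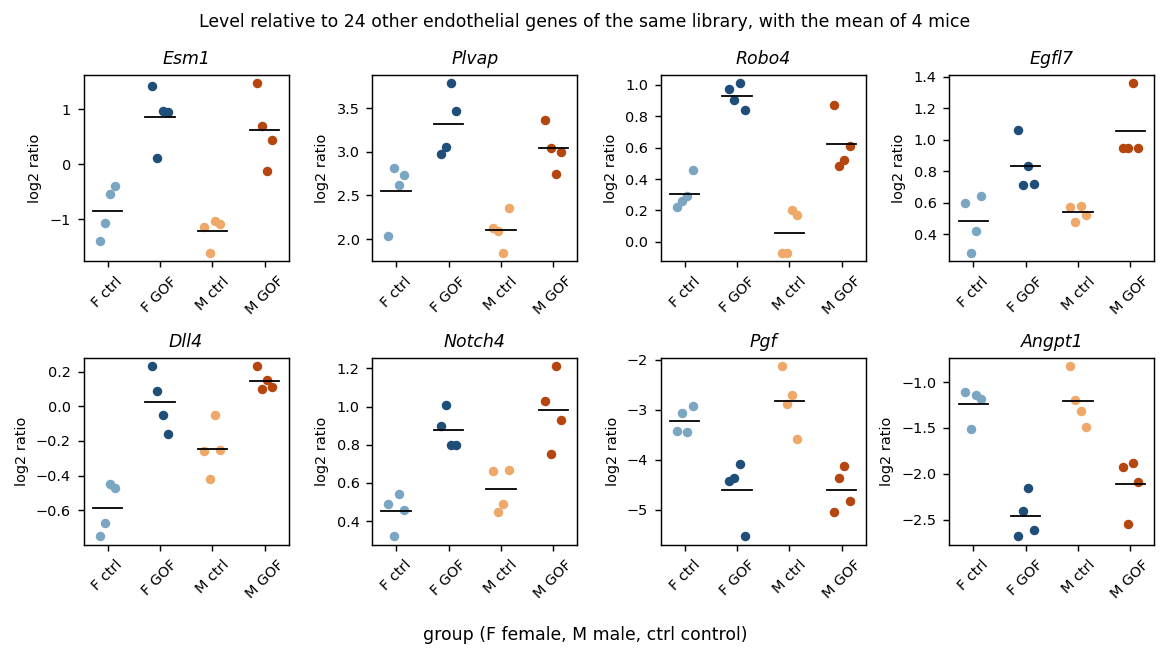
Log2 ratio of 8 members to the mean of 24 other endothelial genes in the same library, 1 point per mouse and a line at the mean of each group of 4; the vertical scale differs between panels. In each sex the GOF points lie wholly above the control points for the first 6 genes and wholly below them for Pgf and Angpt1.

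Sex was then compared within each genotype. In controls 5 members were called higher and 1 lower in males, where 13.5% of all genes were called higher and 9.89% lower. The median was 0.20, beside 0.08 over all genes. In GOF 23 members were called higher and 1 lower in males, where 13.3% of all genes were called higher and 16.3% lower, and the median was 0.68, beside 0.03. With the run of animal numbers as a covariate, which moved with sex, 2 members were called higher and 1 lower in GOF. The comparisons of sex share libraries with those of genotype.

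Vegfc was lower in males in both genotypes, as the library values above show, with log2 differences of -1.73 ± 0.221 in controls (adjusted p 7.87e-05) and -1.77 ± 0.223 in GOF (adjusted p 5.33e-05). Vegfa and Apln were higher in males in both. For Vegfa the differences were 1.06 ± 0.213 (adjusted p 0.00272) and 0.99 ± 0.213 (adjusted p 0.00281), and for Apln 2.0 ± 0.434 (adjusted p 0.00475) and 2.74 ± 0.441 (adjusted p 4.07e-04). No male library overlapped a female library of its genotype for any of the 3 genes. They kept these calls whichever single library was left out. With the run of animal numbers as a covariate the calls of Vegfa were lost, at 0.78 in controls (adjusted p 0.109) and 0.68 in GOF (adjusted p 0.175), as was that of Apln in controls, at 1.46 (adjusted p 0.0931). Within the lowest run of animal numbers, Vegfc was 12.3 CPM in the GOF female against 2.91 and 3.97 in the GOF males, Vegfa 353 against 592 and 678, and Apln 13.3 against 109 and 28.2. For controls in that run, Vegfc was 17.9 in the female against 4.15, 4.50 and 5.93 in the males, Vegfa 255 against 482, 427 and 295, and Apln 10.5 against 19.7, 18.4 and 35.1.

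Sox17 (ENSMUSG00000025902, chromosome 1, 4490931 to 4497354, minus strand), a SoxF factor prominent in arterial endothelium, was higher in males in both genotypes. It had 12.6, 8.45, 8.33 and 11.53 CPM in female controls and 12.7, 14.4, 18.5 and 17.3 in male controls (0.62 ± 0.196, adjusted p 0.0328), and 8.97, 6.02, 6.38 and 10.8 in female GOF and 20.2, 22.8, 23.5 and 19.1 in male GOF (1.41 ± 0.199, adjusted p 1.28e-04). Male and female libraries did not overlap in either genotype. In controls the call was lost without female control 2 or 3 or male control 3 or 4, at 0.54 to 0.57. Vwf was higher in control males (1.33 ± 0.357, adjusted p 0.0156) and not in GOF males (0.02); the control call was lost without female control 3 (1.22) or male control 3 (1.06). Esam, an adhesion protein of endothelial junctions, was called in controls (0.51, adjusted p 0.0464) but lost that in 14 of 16 fits with 1 library left out.

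In the fit without the run of animal numbers, the excess in GOF males spanned most roles. It was called for 5 of 6 adhesion and junction genes (0.61 for Pecam1, 0.63 for Cdh5, 0.76 for Esam, 0.67 for Emcn and 0.60 for Podxl), for Kdr (0.63) and Flt1 (0.77) among the 3 VEGF receptors, and for all 3 of Tek (0.58), Tie1 (0.86) and Ptprb (0.79). Flt4 and Cldn5 were not called (0.43 and 0.46). Adjusted p for the 10 called genes ran from 0.00429 for Flt1 to 0.0472 for Cdh5.

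Pecam1, which joins endothelial cells at their borders, had 99.3, 90.7, 94.98 and 95.2 CPM in GOF females and 160.4, 121, 135 and 163 CPM in GOF males. Esam had 36.8, 32.9, 25.7 and 26.9 CPM in GOF females and 56.6, 46.4, 52.6 and 51.3 CPM in GOF males. Every male was above every female for both, as for the 23 members called higher in GOF males. Over all tested genes 13.4% lay higher in males without overlap, and of those called higher in males 80.3% did. Podxl, a sialomucin of the lumen surface, had 73.9, 61.1, 60.4 and 77.2 CPM in females and 101, 88.5, 110.1 and 114 in males. Emcn had 56.5, 47.4, 48.7 and 56.7 CPM in GOF females, below the GOF males given above. Male GOF 2 was the lowest male for Pecam1, Podxl and Emcn.

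Kdr had 163, 109.6, 100.2 and 111 CPM in GOF females and 187, 171, 187 and 203 CPM in GOF males, and Flt1, a decoy receptor for Vegfa and the receptor of Pgf, had 75.1, 68.5, 41.95 and 58.2 CPM in females and 116, 99.2, 106 and 95.8 in males. Female GOF 3 was the lowest GOF library for both receptors. Tek had 51.5, 60.4, 45.95 and 58.5 CPM in GOF females and 84.05, 69.6, 78.9 and 91.7 in GOF males. Tie1, the orphan receptor that pairs with Tek, had 53.1, 61.5, 65.9 and 67.04 CPM in females and 118, 92.3, 110.5 and 129 in males. Ptprb had 74.05, 71.5, 51.95 and 55.9 CPM in females and 119, 87.7, 97.1 and 133 in males. The gap between the sexes was widest for Tie1 (67.0 to 92.3 CPM) and narrow for Kdr, where female GOF 1 came close to male GOF 2.

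Eng (0.43), Egfl7 (0.94) and Ecscr (0.87) were the 3 called of the 9 other surface and matrix proteins, and Erg (0.88) and Sox17 the 2 called of the 4 transcription factors. Dll4 (0.82), Notch4 (0.84) and Apln were called among the 5 Notch, apelin and tip cell genes. Eng had 113, 88.6, 108 and 101 CPM in GOF females and 154, 123, 140.3 and 134 in GOF males, and Ecscr had 4.73, 3.84, 4.27 and 3.86 CPM in females and 7.89, 6.57, 8.66 and 7.39 in males. Egfl7 had 45.8, 30.3, 29.7 and 30.2 CPM in GOF females, where the first library stood above the other 3 and below every GOF male. Erg, the ETS factor that maintains endothelial identity, had 24.1, 15.2, 16.4 and 19.5 CPM in GOF females and 36.9, 26.9, 33.7 and 41.2 in GOF males. Esm1 was not called (0.48 ± 0.381, adjusted p 0.374), nor was Aplnr by edgeR (1.13 ± 0.434, adjusted p 0.0639), although its groups did not overlap. DESeq2 (1.15, adjusted p 0.0188), voom (1.16, adjusted p 0.0238) and the fit without male control 1 (1.13, adjusted p 0.00156) called Aplnr. Rasip1 (0.86), Nos3 (0.90) and Ramp2 (0.72) all passed. Rasip1 had 8.62, 8.67, 7.37 and 7.25 CPM in GOF females and 12.8, 12.5, 16.5 and 16.2 in GOF males. Ramp2 had 11.48, 11.6, 12.1 and 14.9 CPM in GOF females and 23.1, 19.2, 20.2 and 19.8 in GOF males. Angpt1 passed as well (1.11 ± 0.199, adjusted p 7.99e-04), whose GOF libraries are given above. With 1 library left out, Eng lost its call in 12 of 16 fits, Cdh5 in 11, Kdr and Tek in 6, Pecam1 in 5 (without female GOF 2, 3 or 4 or male GOF 1 or 4) and Ptprb in 2 (without female GOF 3 or male GOF 4).

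The run of animal numbers moved with sex, and its part in these differences is tested only in part. With that run as a covariate, 3 of the 24 members kept their call in GOF: Sox17 at 1.14, Apln at 2.07 and Vegfc at -1.88. The other 21 kept their direction, with log2 differences from 0.28 (Podxl) to 0.90 (Tie1 and Nos3) and adjusted p from 0.0546 to 0.548. That fit sets the sexes apart mainly on the 7 libraries of the lowest run, with 1 female and 2 males in GOF, and the median standard error of the 24 rose from 0.205 to 0.283. In controls 2 were called, Vwf at 2.26 and Vegfc at -1.86. With female GOF 4 counted in the highest run, an alternative chosen after seeing the data, 12 of the 24 kept their call in GOF, and the other 12 ran from 0.39 (Eng) to 0.78 (Dll4), all in the same direction. Female GOF 4 had 95.2 CPM of Pecam1 against 135 and 163 in male GOF 3 and 4, the males of the highest run, and 56.7 of Emcn against 91.9 and 90.3. Within the lowest run, the single GOF female had 99.3 CPM of Pecam1 against 160.4 and 121 in the 2 GOF males, 77.5 of Cdh5 against 143 and 95.9, 53.1 of Tie1 against 118 and 92.3, 8.97 of Sox17 against 20.2 and 22.8, and 25.7 of Dll4 against 36.0 and 29.2. Their direction says nothing of the run, since members called without overlap were chosen, and the values show the size of the gaps alone. For Kdr the values were 163 against 187 and 171, so that the female lay nearer to the lower male than the males to each other. Relative to the 24 other endothelial genes, Pecam1 differed by -0.12 and Cdh5 by -0.11 between GOF males and females, with overlap, while Apln differed by 1.84 and Vegfc by -2.45 without overlap.

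**Figure D5:**
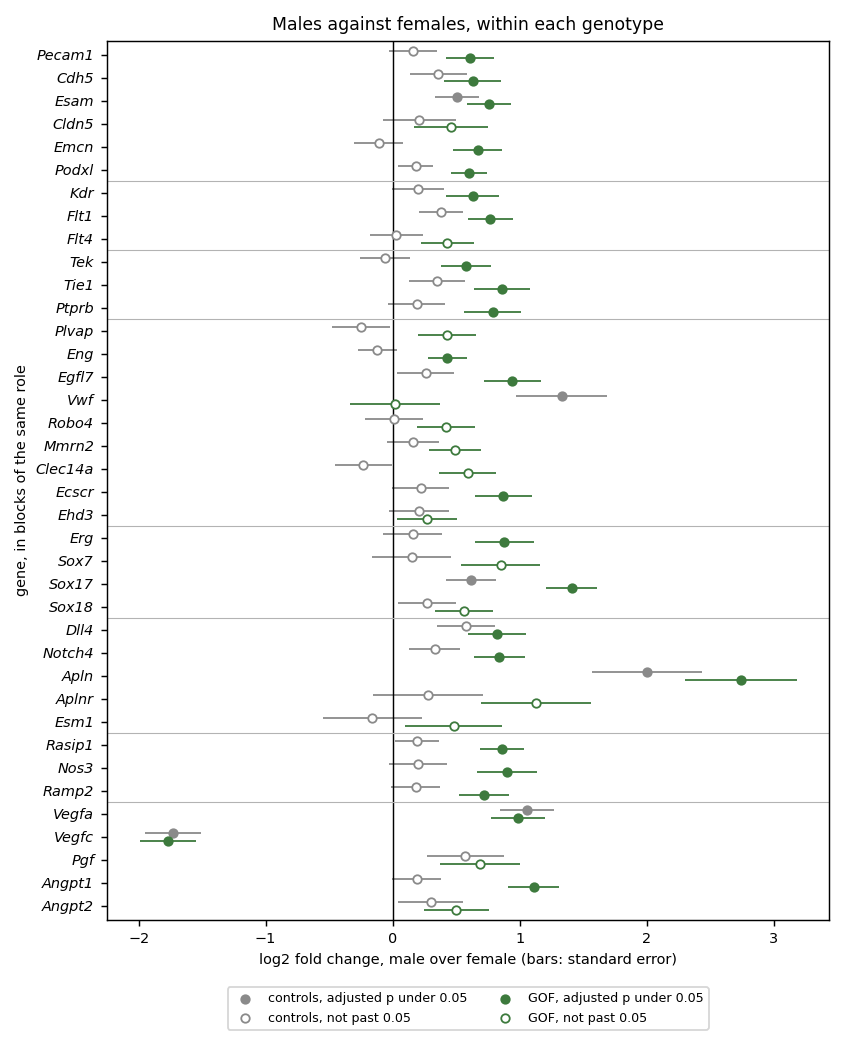
Log2 fold changes of males over females for the 38 genes, controls in grey and GOF in green, with standard errors as bars and filled points for an adjusted p under 0.05. Most green points are filled and lie right of 0, Vegfc is the filled pair on the left, and Apln lies farthest right.

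Whether the GOF effect differed between the sexes was tested as an interaction. By edgeR 0 of the 38 members passed, where 4.21% of all genes did in either direction. At an unadjusted p under 0.05 there were 11 of 38, where 20.2% of all genes were under it. DESeq2 called 3, Emcn at 0.82, Sox17 at 0.83 and Angpt1 at 0.96, a share near the 7.96% of all genes that it called. Fitted differences, male effect minus female effect, were above 0 for 35 of 38 members with a median of 0.51, beside -0.06 over all genes. The exceptions were Vwf (-1.31 ± 0.502), Vegfa (-0.07) and Vegfc (-0.04). Without male control 1 the median was 0.33 and 0 were called, and without male GOF 2 there was 1 call, Angpt1 at 1.11 (adjusted p 0.013). A different response of these genes in males was therefore not shown at this threshold.

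Of the 24 other endothelial genes, 0 were called higher and 4 lower in GOF females (median -0.18), and 4 higher and 1 lower in GOF males (median 0.35). The 4 lower in females and the 4 higher in males are 16.7% of the list each, near the 20.6% and 15.2% over all genes. Cavin2, a coat protein of caveolae, fell most in both sexes, by 1.79 in females and by 1.94 in males. Its level was 47.7 ± 9.52 CPM in female controls and 13.8 ± 2.65 in female GOF, and 64.5 ± 20.7 and 16.8 ± 2.43 in males (SD, n = 4). The 4 called higher in males were Cd93 (0.80), Rasgrp3 (0.71), Calcrl (0.62) and Lyl1 (0.51). In GOF 17 of the 24 were called higher in males than in females and 0 lower (median 0.75), where 13.3% of all genes were called higher and 16.3% lower. With the run of animal numbers as a covariate 2 of the 24 were called higher (median 0.43), and 8 with female GOF 4 counted in the highest run (median 0.61).

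Among partners of the members in the VEGF, angiopoietin, Notch, apelin and semaphorin systems, 18 of 19 genes were tested and most of those called were lower. In GOF females 0 were called higher and 11 lower (median -0.72), and in GOF males 1 higher and 6 lower (median -0.29). Over all genes 19.0% were called higher and 20.6% lower in females, and 15.2% and 21.8% in males. Without female control 1, female control 3 and male control 2 together, 7 were called lower in females. Adm, which encodes the vasodilator adrenomedullin, had 20.2 ± 4.78 CPM in female controls and 3.08 ± 0.298 in female GOF, and 33.2 ± 9.72 and 4.04 ± 0.459 in males, with log2 fold changes of -2.71 ± 0.209 and -3.04 ± 0.21 (adjusted p 7.32e-07 and 2.64e-07). All 7 chromaffin cell genes fell too, and their part in the level of Adm was not tested. The Notch target Hey2 changed by -1.68 and -2.53 and its relative Heyl by -1.05 and -1.15, in females and males. Nrarp, another Notch target, named after its values were seen, had 0.15 and 0.68 and did not pass (adjusted p 0.706 and 0.0747). Nrp1, a VEGF and semaphorin coreceptor, fell in females (-1.31 ± 0.148) and did not pass in males (-0.26 ± 0.146), and Dll1, another Notch ligand, fell in females (-1.15). Angptl4, an angiopoietin-like secreted protein, fell in males (-1.56).

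Counts for markers of other vessel types stand beside the shares over all genes, 19.0% called higher and 20.6% lower in females and 15.2% and 21.8% in males, where lower calls also outnumbered higher ones. Of 6 lymphatic markers 4 were called lower and 0 higher in each sex (medians -1.43 and -1.50): Lyve1 (-2.58 and -2.03), Reln (-1.67 and -1.66), Pdpn (-1.48 and -1.93) and Mmrn1 (-1.38 and -1.33). Prox1, which cells other than lymphatic endothelium may also express, and Ccl21a did not pass. Of 6 venous markers 1 was called higher and 3 lower in females and 1 higher and 4 lower in males; the leukocyte adhesion genes Selp (-2.57 and -2.17) and Sele (-2.25 and -1.51) fell, and Vcam1 rose (0.97 and 1.23). The atypical chemokine receptor Ackr1 fell in males (-2.61). Of 8 arterial markers 0 were higher and 5 lower in females, 3 of them lower without the 3 libraries named above, and 1 higher and 1 lower in males. Cxcl12, a chemokine also made by stromal cells, fell in both sexes (-2.47 and -2.16), Hey1 (-1.02) and Sema3g (-0.66) fell in females, and Efnb2 rose in males (0.53). Of 8 genes of blood-brain type barrier endothelium, 1 was higher and 3 lower in females and 0 higher and 3 lower in males; among them Apcdd1 (-1.54 and -2.15) and Lef1 (-0.95 and -1.09) are WNT pathway genes that many cell types express.

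Among genes of the cells and matrix around the endothelium, several counts lay near or below those shares. Of 12 pericyte and smooth muscle genes 1 was higher and 2 lower in females and 1 higher and 5 lower in males. Pdgfb, the endothelial signal that recruits pericytes, rose in both sexes (0.48 and 0.44), while the pericyte gene Rgs5 fell (-1.15 and -0.98), as did Des (-0.74 and -0.81) and, in males, the smooth muscle genes Cnn1 (-2.64) and Myh11 (-1.12). Of 10 genes of the vessel basement membrane 1 was higher and 2 lower in females and 0 higher and 3 lower in males, with Hspg2 at 0.80 in females, Col18a1 at -1.27 in males and Lama4 at -0.67 and -0.83. Of 11 hypoxia response genes 1 was higher and 5 lower in females and 1 higher and 6 lower in males; the glycolytic genes Hk2 (-2.62 and -2.02) and Pgk1 (-0.75 and -0.89) fell in both, Ndrg1 fell in females (-1.98), Ldha fell most after Hk2 in males (-1.21), and Car9 rose (0.93 and 1.14). Adipocyte markers fell too, 5 of 6 in females and 6 of 6 in males, with summed levels of 1395 to 1627 CPM in female controls against 353 to 706 in female GOF and 1755 to 3213 against 244 to 297 in males, and the part of adipose vessels in these lists was not tested. Of 6 macrophage genes 1 was called higher in GOF females and 3 in GOF males, with summed levels between 85.1 and 183 CPM among female controls, 154.5 and 237 among GOF females, 200.5 and 289 among male controls, and 312 and 673 among GOF males. Genes of liver sinusoidal endothelium summed to 14.7 CPM in male control 2 and to 4.83 to 10.03 in the other libraries. Hepatocyte genes were called lower for 7 of 7 in GOF males. Without male control 2 alone, 7 members were called in males.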

How the data were processed

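Whole adrenal glands of 16 individual mice were sequenced at a service company as 150 bp paired reads from NEBNext Ultra libraries, with a cut on RNA integrity number of 7.0, per the labels' protocols. Bowtie2 2.2.3, TopHat2 2.0.12, HTSeq 0.6.1 and DESeq 1.18.0 are named in the submitters' processing notes. Their roles, the genome build and the strandness of the counting are not given in the sources used here. The deposited tables hold whole-number counts per gene, which entered the tests, and FPKM values made by the authors, per the file headers, which served to compare levels between genes and for an alternative fit. Gene symbols and coordinates come from GENCODE M21 (GRCm38), which holds 54723 of the 54838 identifiers, and the lengths implied there equal the deposited ones within 1 base in 97.8% of 34180 genes.

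One model was fitted to the counts of all 16 libraries with a mean for each of the 4 groups, with edgeR 4.0.16 (R 4.3.3), its robust quasi-likelihood test, TMM factors and filterByExpr; the 18214 genes kept shared 1 Benjamini-Hochberg adjustment per contrast. The contrasts were GOF against control in each sex, males against females in each genotype, and the interaction. A standard error is the fold change over the root of the F statistic. Tested on simulated data for GOF against control in females over 18214 genes with 200 changed, the fit called 63.9% of 2-fold and 99.0% of 4-fold changes, and 4.09% of its calls were false. The simulation gave every gene the same dispersion, and no library had a shift shared by many genes. These rates therefore need not hold for the data here. No 2 libraries of a group agreed within sampling noise. Libraries held 31275146 to 43003968 counts, and the spread between mice of a group exceeded the counting noise. The lowest member, Pgf, rests on 14 counts in 1 library.

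The members and all gene lists were chosen with earlier results of these data known, and no list is independent evidence. Members called without overlap of the groups in at least 1 of the 4 contrasts between groups are given with the value of every library of those 2 groups, and of other lists up to 4 genes of largest change with at least 1 CPM in a group. Alternatives were DESeq2 1.42.0, RLE and upper-quartile factors, a fit without the other 2 groups, no filter on low counts or a minimum of 10 counts per library, limma 3.58.1 on log2(FPKM + 1) or log2(FPKM + 0.1) with and without a minimum mean of 0.5 FPKM, voom with sample weights, the run of animal numbers as a covariate, that covariate with female GOF 4 moved to the highest run (added after seeing the data), an absolute log2 fold change of at least 1, each library left out, and 3 libraries with liver or kidney transcripts left out together. Promoter windows come from RefSeq on GRCm38.p6.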

Additional observations from a re-analysis of the deposited data

Results flagged for a closer look

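Among 152 groups of 4 libraries (38 members in 4 groups), 9 held a library that lay far from the other 3, its gap to the nearest being past the 95% limit of Dixon's ratio to the range, where chance flags about 1 in 20. Low in their group were Pecam1 in female control 1 at 89.22 CPM, Notch4 in female control 2 at 26.86 CPM, Vegfc in female control 4 at 11.41 CPM and Dll4 in male GOF 2 at 29.18 CPM. High in their group were Emcn in female control 2 at 70.56 CPM, Flt1 in female control 4 at 81.74 CPM, Egfl7 and Robo4 in female GOF 1 at 45.83 and 43.03 CPM, and Angpt2 in female GOF 3 at 8.504 CPM. Leaving out the library concerned changed 3 calls by edgeR. Without female control 4 Vegfc in GOF females was at -0.70 with an adjusted p of 0.0196, against -0.56 and 0.0506 with it. Dll4 in GOF males lost its call without male GOF 2, at 0.67 with an adjusted p of 0.0524, and Emcn in GOF males lost it without female control 2, at 0.53 with an adjusted p of 0.0515; each of these 2 calls was lost in 13 of 16 fits with 1 library left out.

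The GOF effect differed between the sexes for 4 genes of the other lists, by edgeR's interaction term with Benjamini-Hochberg adjustment over all tested genes, as male minus female effect. Vegfd, a ligand of Flt4 in the mouse, differed by 1.20 (adjusted p 7.85e-04), with 137.5 CPM in female controls, 92.9 in female GOF, 59.4 in male controls and 92.3 in male GOF. Nrp1, the VEGF and semaphorin coreceptor, differed by 1.05 (adjusted p 0.0116), with 197.6, 79.9, 116 and 96.9 CPM in the same order. Vegfb, a ligand of Flt1, differed by -0.58 (adjusted p 0.0391), with 54.7, 54.2, 71.0 and 47.2 CPM. Abcb1a, a drug efflux pump of barrier endothelium, differed by -1.16 (adjusted p 0.0164), with 29.5, 53.8, 48.2 and 39.3 CPM.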

How the results depend on the processing

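Over 5 contrasts the members had 50 calls, and of 1450 values under the alternatives 1161 kept direction and call, 289 kept the direction and lost the call, and 0 reversed. The calls kept under every alternative run were 10: Pgf and Angpt1 in GOF females, Esm1, Plvap, Vwf and Pgf in GOF males, Apln, Sox17 and Vegfc between the sexes in GOF, and Vegfc between the sexes in controls. The cause of the shifts given below was not tested. The covariate with female GOF 4 counted in the highest run was chosen after seeing the data: with it the members called were 7 in GOF females, 12 between the sexes in GOF and 2 for the interaction (Vwf at -1.52 and Sox17 at 0.95), and all genes called between the sexes in controls were 1946.

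In GOF females the 4 members called became 8 with DESeq2, 7 with RLE factors, 7 with at least 10 counts and 11 with only the groups compared, and 3 to 8 with 1 library left out (8 without female GOF 4 or male control 1, 7 without male GOF 1). All genes called went from 7218 to 4554 without female control 1, female control 3 and male control 2, to 3121 with an absolute log2 fold change of at least 1, and to 5709 to 7466 with 1 library left out. In GOF males the 16 members became 8 with no filter, 7 with only the groups compared, 9 with the run of animal numbers as a covariate, 6 with a log2 change of at least 1, 4 without the 3 libraries, and 6 to 16 with 1 left out (6 without male GOF 3, 7 without male control 2, 8 without male GOF 1 or 4, 10 without female control 2 or 3, female GOF 2, 3 or 4 or male control 1). All genes called went from 6724 to 3366 at that log2 change, and to 5215 to 6711 with 1 left out.

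Between the sexes in controls the 6 members became 2 with the run of animal numbers as a covariate and 3 without the 3 libraries, and 3 to 12 with 1 left out (3 without female control 3 or male control 3, 12 without male control 1). All genes called went from 4266 to 1521, 1648 and, at a log2 change of at least 1, 1405, and to 2650 to 4881 with 1 left out (2650 without female control 3). In GOF the 24 members became 3 with that covariate and 4 at a log2 change of at least 1, and 18 to 30 with 1 left out. All genes called went from 5394 to 1628 and 1814, and to 4243 to 5660. For the interaction the 0 members became 3 with DESeq2 and 0 to 1 with 1 left out. All genes called went from 766 to 1434 with DESeq2, 408 with no filter, 407 with limma on log2(FPKM + 1) without a filter, 1331 with voom, 175 without the 3 libraries, 381 at a log2 change of at least 1, and 377 to 953 with 1 left out.

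The share of calls that were higher over all genes also moved with other scalings. In sex within GOF it went from 44.9% to 55.2% with upper-quartile factors, and in GOF males to 51.2% with the same factors. In the interaction it went from 37.9% to 48.5% (RLE), 62.6% (upper quartile) and 48.8% (limma on FPKM, where test and gene filter differ as well). With log2(FPKM + 0.1) the median of all genes moved to 0.11 in GOF females and 0.12 in GOF males. The median of the members stayed between -0.23 and -0.12 in females and between 0.36 and 0.55 in males. No paired analysis was possible because no 2 groups share a title number, read here as an animal number.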
